A study of Mus musculus with 18 samples.

Results

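The 55 genes described here run the cell cycle and copy the genome: 7 cyclins and kinases of the step from G1 to S phase, 4 inhibitors or pocket proteins that hold that step back, 4 E2F transcription factors, 16 genes of DNA replication, 20 genes of mitosis and 4 general markers of cells between S phase and mitosis. They were chosen by name and function, all 55 were found among the 56953 genes of the count tables by Ensembl identifier, and all 55 passed the filter on low counts that left 16747 genes for testing. The cells were natural killer (NK) cells, cytotoxic innate lymphocytes, from mouse spleen, cultured for 7 days. The medium held interleukin 2 (IL-2), a growth factor for NK cells, at 1700 U/ml, and oxygen was held at 1%. In 3 groups the cells carried a Cre transgene under the NK cell gene Ncr1 together with loxP-flanked alleles: Hif1a fl/fl with Ncr1 iCre (called Hif1a KO), Ahr fl/fl with Ncr1 iCre (Ahr KO), and both Hif1a fl/fl and Ahr fl/fl with Ncr1 iCre (Hif1a Ahr KO). Each was set against cells of its own line without the Cre, labelled Hif1a fl/fl (Hif1a flox), Ahr fl/f (Ahr flox) and Hif1a fl/fl, Ahr fl/f (Hif1a Ahr flox), so that Cre and deletion differ together in every comparison and no group carried the Cre alone. There were 3 biological replicates in each of the 6 groups, 18 libraries in all, and every group was cultured at low oxygen. Age and sex of the mice are not given in the sources used here.

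A cell that divides first passes from G1 into S phase, when cyclin D with Cdk4 or Cdk6 and then cyclin E with Cdk2 release the E2F factors from the pocket protein Rb1. E2F factors drive the genes that load the replicative helicase (the Mcm proteins with Cdc6 and Cdt1) and supply nucleotides (Rrm1, Rrm2, Tyms). Later, in G2, another program led by Foxm1 and by DREAM-regulated promoters brings up cyclin B, Cdk1, the Aurora kinases and the spindle motors that carry out mitosis. Hif1a is the oxygen-regulated transcription factor that serves the low-oxygen response, and Ahr, the aryl hydrocarbon receptor, is a ligand-activated factor of the same bHLH-PAS protein family. IL-2 is known to keep NK cells dividing in culture.

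Library totals lay between 54420649 and 55732940 estimated counts, and replicates of a group differed 14.6 to 60.1 times more than counting error alone (chi-square per degree of freedom), so replicate spread rather than depth limits the precision. The gene totals did not check the deletions. Hif1a was at 182, 147 and 211 CPM (counts scaled to library size) in libraries labelled Hif1a KO, against 64.9, 59.5 and 56.5 CPM in Hif1a flox, a log2 difference of 1.58 ± 0.11 (standard error) that goes against the label, and Ahr differed by 0.27 ± 0.20 between Ahr KO and Ahr flox (edgeR quasi-likelihood adjusted p = 0.515). Hif1a also rose in Hif1a Ahr KO (1.68 ± 0.11, edgeR adjusted p = 3.07e-09) and was at 0.10 ± 0.11 in Ahr KO (adjusted p = 0.663). Ahr was at -0.26 ± 0.20 in Hif1a Ahr KO (edgeR adjusted p = 0.374). Ncr1, the gene that drives the Cre, rose by 0.92, 0.97 and 1.06 in Hif1a KO, Ahr KO and Hif1a Ahr KO (edgeR adjusted p up to 1.85e-05). The labels do not say which part of either gene is flanked, so KO below names a label. All 11 NK markers were expressed, with a summed level of 14590 to 16480 CPM in Hif1a KO, 25920 to 30650 in Ahr KO and 19660 to 20770 in Hif1a Ahr KO, against 20840 to 25170 in Hif1a flox, 19320 to 26200 in Ahr flox and 19090 to 24080 in Hif1a Ahr flox. The 11 T cell markers summed to 473 to 503 CPM in Hif1a KO, 567 to 619 CPM in Ahr KO and 582 to 603 CPM in Hif1a Ahr KO. Their sums were 597 to 669 CPM in Hif1a flox, 613 to 659 CPM in Ahr flox and 617 to 665 CPM in Hif1a Ahr flox. Neutrophil markers (6 genes) summed to at most 5.03 CPM, B cell markers (6) to at most 1.26 CPM and erythroid markers (6) to at most 0.526 CPM in any library. The 6 dendritic cell markers summed to 11.6 to 12.8 CPM in Hif1a KO, 54.3 to 58.9 CPM in Ahr KO and 12.1 to 15.7 CPM in Hif1a Ahr KO, against 41.8 to 49.8 CPM in Hif1a flox, 52.6 to 54.9 CPM in Ahr flox and 44.2 to 49.2 CPM in Hif1a Ahr flox. Within that list H2-Ab1 fell in Hif1a KO (-2.95 ± 0.16) and in Hif1a Ahr KO (-2.90 ± 0.16), both called by edgeR. Xcr1 fell in Hif1a Ahr KO (-3.40 ± 0.48) and was not called in Hif1a KO (-1.02 ± 0.41). Zbtb46 was at 0.35 ± 0.26 and 0.49 ± 0.26 in Hif1a KO and Hif1a Ahr KO, neither called. Flt3, Siglech and Clec9a did not pass the filter on low counts. No list had a gene at 0 in every library. Protein-coding genes of the mitochondrial genome took 3.08% ± 0.13 of counts in Hif1a KO and 3.83% ± 0.49 in Hif1a Ahr KO, against 1.75% ± 0.26 and 1.77% ± 0.08 in their flox groups (SD, n = 3), and their part in the results below was not tested.

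Mitosis genes moved in opposite directions in the 2 single KO lines. In libraries labelled Hif1a KO, all 20 mitosis genes rose, with log2 fold changes of 0.34 to 0.86 and a median of 0.51. Ahr KO libraries showed the reverse, with 18 of the 20 lower, all 20 below 0 and a median of -0.44. Neither direction was seen in the double line, where none of the 20 was called and the median was -0.06. Over all 55 members, 40 rose and 1 fell in Hif1a KO, where 35.4% of all genes tested were called (17.6% higher and 17.8% lower). In Ahr KO 0 rose and 26 fell, where 6.92% of all genes were called (2.14% higher and 4.78% lower). In Hif1a Ahr KO 3 rose and 5 fell, where 31.3% of all genes were called (14.8% higher and 16.5% lower). Those 3 became 8 without Hif1a Ahr flox replicate 1 and 1 without Hif1a Ahr flox replicate 2. The 5 became 8 without Hif1a Ahr flox replicate 2, 2 without Hif1a Ahr KO replicate 2 and 3 with Hif1a Ahr flox replicate 1 or 3 or Hif1a Ahr KO replicate 3 omitted, and a fit of that line alone gave 2 and 1. A gene was called at a Benjamini-Hochberg adjusted p under 0.05 in edgeR's quasi-likelihood test, adjusted over all 16747 genes, whose own median log2 fold change was within 0.02 of 0 in each comparison. TMM scaling centres most genes near 0, so this median cannot show whether all genes shifted together. In bulk RNA, more cycling cells and more of these transcripts per cycling cell cannot be told apart. The summed level of 6 macrophage and monocyte markers moved with the mitosis genes. It was 51.8 to 55.7 CPM in Hif1a KO, 24.1 to 30.2 CPM in Ahr KO and 38.2 to 47.6 CPM in Hif1a Ahr KO, against 34.3 to 42.9 CPM in Hif1a flox, 31.4 to 55.4 CPM in Ahr flox and 38.6 to 46.2 CPM in Hif1a Ahr flox. Within that list Cd68, a lysosomal protein, rose in Hif1a KO (0.75 ± 0.20, edgeR adjusted p = 0.00847) and fell in Ahr KO (-1.04 ± 0.20, adjusted p = 0.00631). Csf1r, Lyz2 and Cd14 fell in Hif1a KO and were not called in Ahr KO, and Adgre1 and Mertk did not pass the filter on low counts. The part of these cells in the results was not tested.

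**Figure D1:**
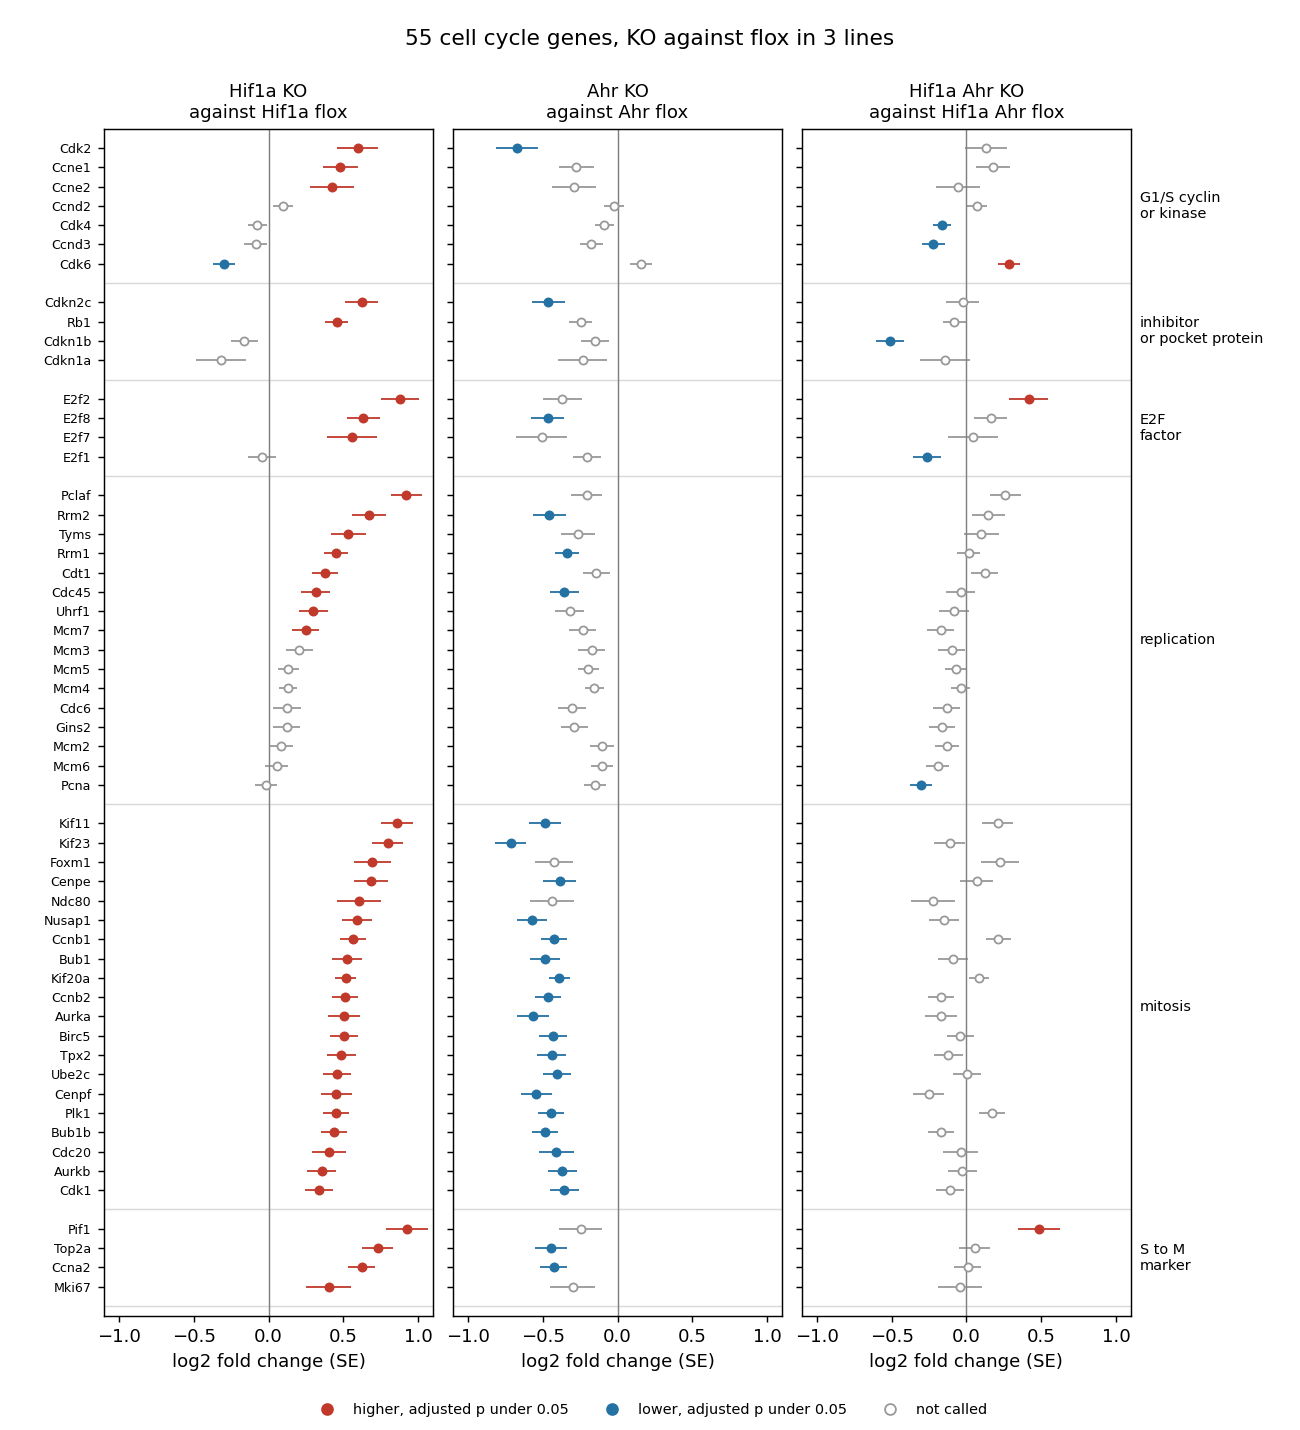
Log2 fold change with its standard error (horizontal axis) of the 55 members in Hif1a KO against Hif1a flox, Ahr KO against Ahr flox and Hif1a Ahr KO against Hif1a Ahr flox (3 panels, n = 3 libraries per group), ordered within each role by the first panel. Filled points passed the adjusted p of 0.05: all 20 mitosis genes lie right of 0 in the first panel, all 20 lie left of 0 in the second and none is filled in the third.

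Kif11 and Kif23, both spindle motors, had the largest changes of the 20 genes in Hif1a KO. Kif23, a kinesin of the central spindle that is needed for the cell to split, was at 121, 135 and 128 CPM in Hif1a KO, against 68.4, 82.6 and 70.7 CPM in Hif1a flox. In Ahr KO it was at 56.9, 46.9 and 56.4 CPM, against 92.03, 79.9 and 90.8 CPM in Ahr flox, and in Hif1a Ahr KO at 86.2, 80.8 and 74.5 CPM, against 96.0, 73.6 and 91.3 CPM in Hif1a Ahr flox. The KO and flox libraries were fully separated in both single lines and overlapped in the double line. Kif23 rose by 0.80 ± 0.10 in Hif1a KO (edgeR adjusted p = 1.06e-05), fell in Ahr KO (-0.71 ± 0.10, adjusted p = 0.000356) and was at -0.11 ± 0.10 in Hif1a Ahr KO (adjusted p = 0.446). Kif11, the motor that pushes spindle poles apart, was at 290.0, 316 and 316 CPM in Hif1a KO, against 162, 188 and 160.2 CPM in Hif1a flox. It rose by 0.86 ± 0.11 (edgeR adjusted p = 7.09e-06) and fell in Ahr KO by 0.48 on the log2 scale (SE 0.11, adjusted p = 0.00928), a call that omitting replicate 1 of Ahr flox or replicate 2 of Ahr KO removed (adjusted p up to 0.0655). Nusap1, which bundles spindle microtubules, was at 103, 92.9 and 108 CPM in Ahr KO, against 159, 135 and 157 CPM in Ahr flox, lower in every Ahr KO library. It fell there by 0.57 on the log2 scale (SE 0.10, edgeR adjusted p = 0.00175) and rose by 0.59 ± 0.10 in Hif1a KO (adjusted p = 0.000144).

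The mitotic switch and its kinases followed the same course with smaller changes. Kif20a, a kinesin that carries regulators to the midzone, was at 162, 159 and 169.8 CPM in Hif1a KO, against 111, 119 and 114 CPM in Hif1a flox. Its level in Ahr KO was 101, 92.3 and 100.7 CPM, against 135, 125 and 126 CPM in Ahr flox. No KO library overlapped a flox library in either line. Cyclin B1 (Ccnb1), the partner that turns Cdk1 into the mitotic kinase, was at 149.6, 157 and 158 CPM in Hif1a KO, against 99.3, 111 and 103 CPM in Hif1a flox. The Ahr KO libraries had 92.4, 82.0 and 104 CPM, against 128, 121 and 124 CPM in Ahr flox. Ccnb1 in Hif1a Ahr KO was at 128, 132 and 112 CPM, against 118, 96.9 and 106 CPM in Hif1a Ahr flox. Ccnb1 rose by 0.57 ± 0.09 in Hif1a KO (edgeR adjusted p = 5.86e-05), fell in Ahr KO (-0.42 ± 0.09, adjusted p = 0.00578) and was at 0.21 ± 0.09 in Hif1a Ahr KO (adjusted p = 0.0668). Cyclin B2 (Ccnb2) was at 142, 149 and 154 CPM in Hif1a KO, against 100.4, 106 and 106 CPM in Hif1a flox. In Ahr KO it was at 89.4, 77.4 and 87.8 CPM, against 126, 107 and 118 CPM in Ahr flox. Polo-like kinase 1 (Plk1), which drives entry into mitosis, was at 106, 123 and 118 CPM in Hif1a KO, against 79.3, 86.98 and 87.7 CPM in Hif1a flox. Its level in Ahr KO was 74.1, 63.9 and 74.8 CPM, against 107, 90.9 and 91.1 CPM in Ahr flox. Both genes were separated by group in these lines, as were all 20 mitosis genes, where 49.8% of all genes tested were separated in the Hif1a line and 29% in the Ahr line.

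The other mitosis genes hold kinetochore and checkpoint proteins (Bub1, Bub1b, Cenpe, Cenpf, Ndc80), the Aurora kinases Aurka and Aurkb with Birc5 and Tpx2, the anaphase activators Cdc20 and Ube2c, the kinase Cdk1 itself and the transcription factor Foxm1. Their changes ran between 0.34 for Cdk1 and 0.69 for Foxm1 in Hif1a KO, each called. In Ahr KO the lowest was -0.57 for Aurka, and the uncalled 2 were Foxm1 at -0.42 ± 0.13 (edgeR adjusted p = 0.0538) and Ndc80 at -0.43 ± 0.15 (adjusted p = 0.0924). Same-numbered libraries of the Ahr line deviated together, and with the replicate number as a block 20 of 20 mitosis genes, 9 of 16 replication genes and 40 of 55 members were lower in Ahr KO. The Ahr counts also rest on single libraries: the 18 mitosis calls fell to 10 without Ahr KO replicate 2 and 11 without Ahr flox replicate 1, and the 26 member calls to 11, 12 and 15 without Ahr KO replicate 2, Ahr flox replicate 1 and Ahr flox replicate 3.

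**Figure D2:**
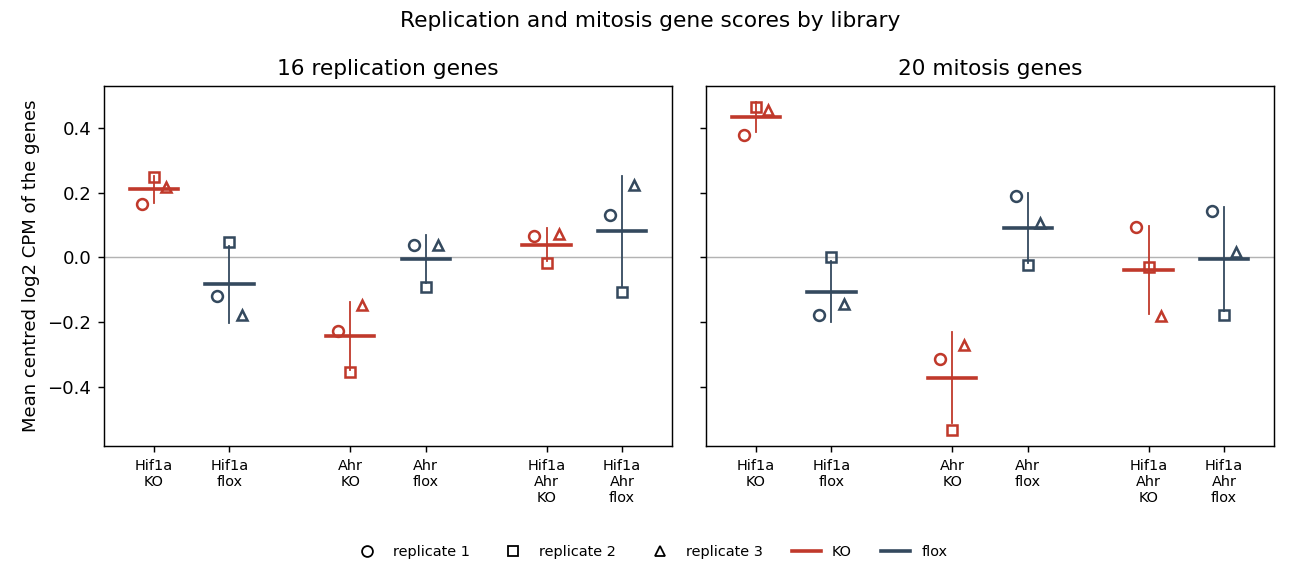
Mean over 16 replication genes (left) and 20 mitosis genes (right) of log2 CPM centred on each gene's mean over all 18 libraries (vertical axis), by library; lines mark group means and vertical bars 1 SD (n = 3). The mitosis score lies at 0.38 to 0.46 in Hif1a KO, above all Hif1a flox libraries, and at -0.53 to -0.27 in Ahr KO, below all Ahr flox libraries.

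Replication genes lay on the same sides with smaller medians and fewer calls. In Hif1a KO 8 of 16 rose and none fell, with a median log2 fold change of 0.23, and in Ahr KO 3 fell (Cdc45, Rrm1 and Rrm2), with all 16 below 0 and a median of -0.22. In Hif1a Ahr KO 1 of 16 fell (Pcna), 0 rose and the median was -0.08. Both subunits of ribonucleotide reductase, which makes DNA precursors, were called in both single lines. Rrm2, the cell-cycle-regulated subunit, was at 463, 507 and 474 CPM in Hif1a KO, against 292, 332 and 282 CPM in Hif1a flox. It was at 275, 239 and 286 CPM in Ahr KO, against 404, 327 and 366 CPM in Ahr flox. The Hif1a Ahr KO libraries had 394, 376 and 375 CPM, against 380.5, 273 and 380.6 CPM in Hif1a Ahr flox. Again KO and flox libraries separated in the single lines and overlapped in the double line. Rrm2 rose by 0.67 ± 0.11 in Hif1a KO (edgeR adjusted p = 0.000139) and fell in Ahr KO (-0.46 ± 0.11, adjusted p = 0.0185). Rrm1, its partner subunit, was at 312, 288 and 335 CPM in Ahr KO, against 408, 370.3 and 402 CPM in Ahr flox, and fell (-0.34 ± 0.08, edgeR adjusted p = 0.0156); in Hif1a KO it rose by 0.45 ± 0.08 (adjusted p = 0.00026). The calls of Rrm1 and Rrm2 in Ahr KO were lost when replicate 1 or 3 of Ahr flox or replicate 2 of Ahr KO was omitted, with adjusted p up to 0.0992 for Rrm1 and 0.115 for Rrm2. Tyms, thymidylate synthase, rose by 0.53 ± 0.11 in Hif1a KO (adjusted p = 0.0015).

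Among the 6 members of the helicase ring, Mcm2 to Mcm7, only Mcm7 was called in Hif1a KO, at 0.25 ± 0.09 (edgeR adjusted p = 0.0421), and its call was lost in 5 of the 6 fits that left out 1 Hif1a library, with adjusted p up to 0.178. The other 5 lay between 0.05 for Mcm6 and 0.21 for Mcm3, and with the replicate block Mcm3 was called as well (adjusted p = 0.015). The loading and firing factors split: Cdt1 and Cdc45 rose in Hif1a KO (0.38 ± 0.09 and 0.32 ± 0.10), while Cdc6 and Gins2 were at 0.12 each, short of the threshold. The Cdc45 call was lost in 3 of the 6 fits that left out 1 Hif1a library (edgeR adjusted p up to 0.0692). Uhrf1, which helps restore DNA methylation behind the fork, rose by 0.30 ± 0.10 (edgeR adjusted p = 0.0241), a call lost in 4 of the 6 fits without 1 library (adjusted p up to 0.105). Pcna, the sliding clamp of the polymerases, was the single replication gene called in the double line. It was at 455, 395 and 419 CPM in Hif1a Ahr KO, against 517, 473 and 578 CPM in Hif1a Ahr flox, without overlap. It fell there by 0.31 on the log2 scale (SE 0.07, edgeR adjusted p = 0.0037) and was at -0.02 ± 0.07 in Hif1a KO (adjusted p = 0.879). A fit of the double line alone did not call Pcna. The count of replication genes that rose in Hif1a KO depended on scaling. It was 11 with library totals and no further scaling, where 4117 of all genes were called higher, beside 2948 with TMM. It was 5 when replicate 1 or 3 of Hif1a flox or replicate 3 of Hif1a KO was omitted. The 3 calls in Ahr KO became 0 when replicate 1 or 3 of Ahr flox or replicate 2 of Ahr KO was.

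**Figure D3:**
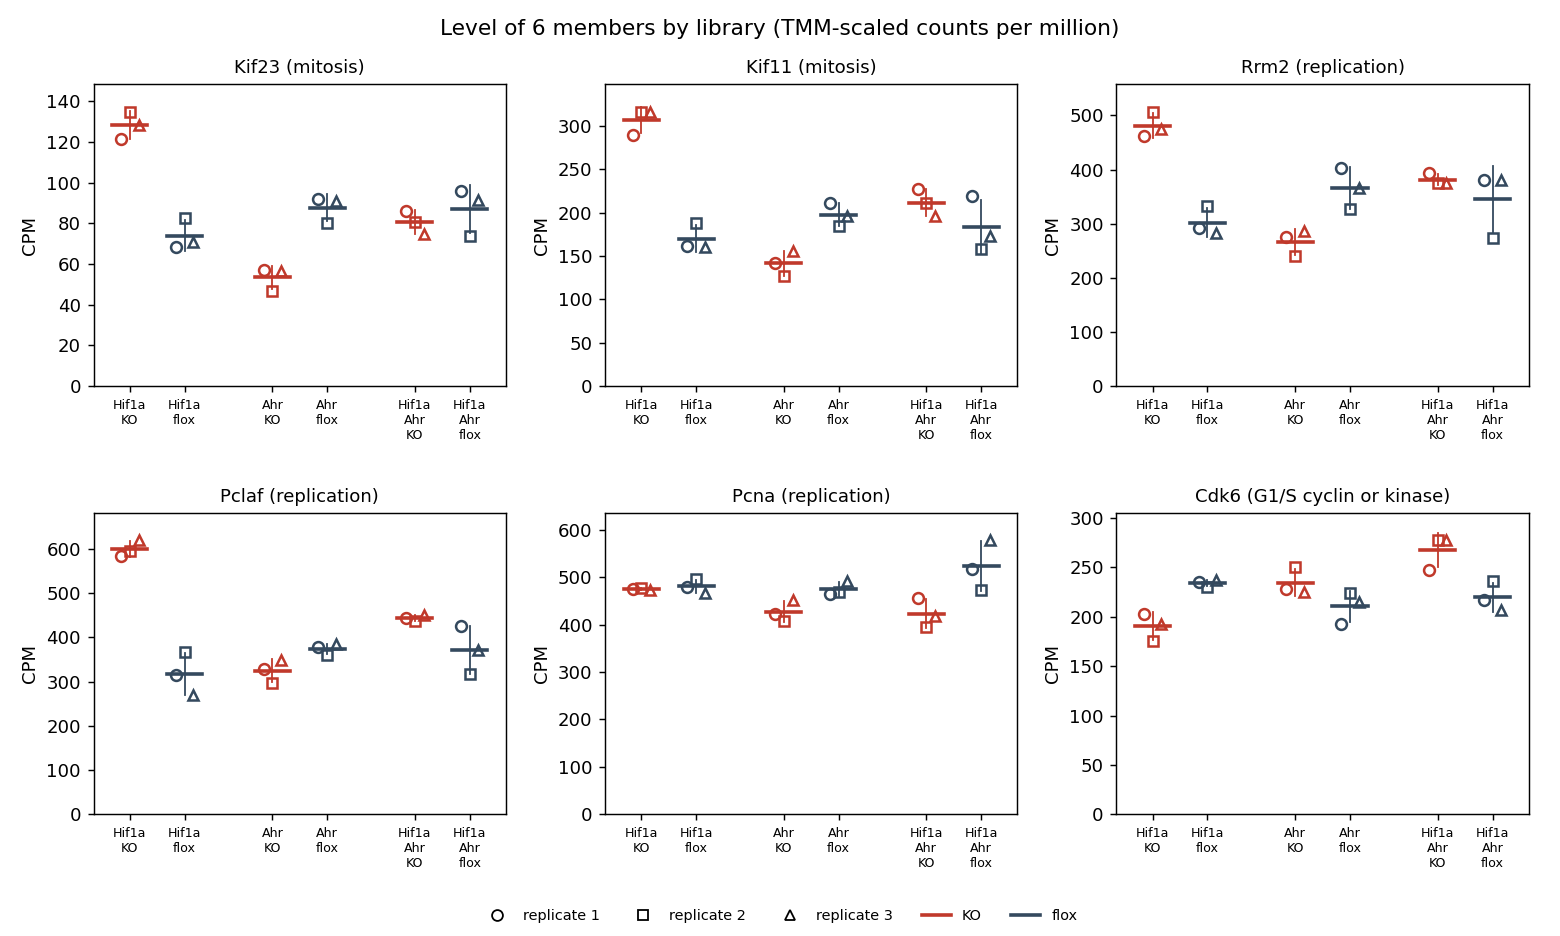
TMM-scaled CPM (vertical axis, from 0) of Kif23, Kif11, Rrm2, Pclaf, Pcna and Cdk6 in the 18 libraries; lines mark group means and vertical bars 1 SD (n = 3). Kif23, Kif11 and Rrm2 are high in Hif1a KO and low in Ahr KO, Pcna is low in Hif1a Ahr KO, and Cdk6 is low in Hif1a KO and high in Hif1a Ahr KO.

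Replication was also set against mitosis within each library, in all 6 groups. The replication score minus the mitosis score was -0.21, -0.22 and -0.24 in Hif1a KO, against 0.06, 0.05 and -0.04 in Hif1a flox. In Ahr KO it was 0.08, 0.18 and 0.12, against -0.15, -0.07 and -0.07 in Ahr flox, and in Hif1a Ahr KO -0.03, 0.01 and 0.25, against -0.02, 0.07 and 0.21 in Hif1a Ahr flox. So this score was lower in every Hif1a KO library than in every Hif1a flox library. It was higher in every Ahr KO library than in every Ahr flox library, and the double line overlapped. Both programs moved the same way in each single line. The replication and mitosis scores differed by 0.29 and 0.54 in the Hif1a line and by -0.24 and -0.46 in the Ahr line. A changed balance and a smaller change of replication genes in 1 shared shift cannot be told apart by this score. The mean difference between KO and flox was -0.25 in the Hif1a line, 0.22 in the Ahr line and -0.01 in the Hif1a Ahr line, beside a pooled SD between replicates of 0.08. A common scaling factor cancels in this score. The same score over 44 other replication genes and 42 other mitosis genes, which share no gene with the members, differed by -0.27, 0.18 and -0.07 in the 3 lines. These are descriptions, with no test, since the genes were chosen by hand.

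**Figure D4:**
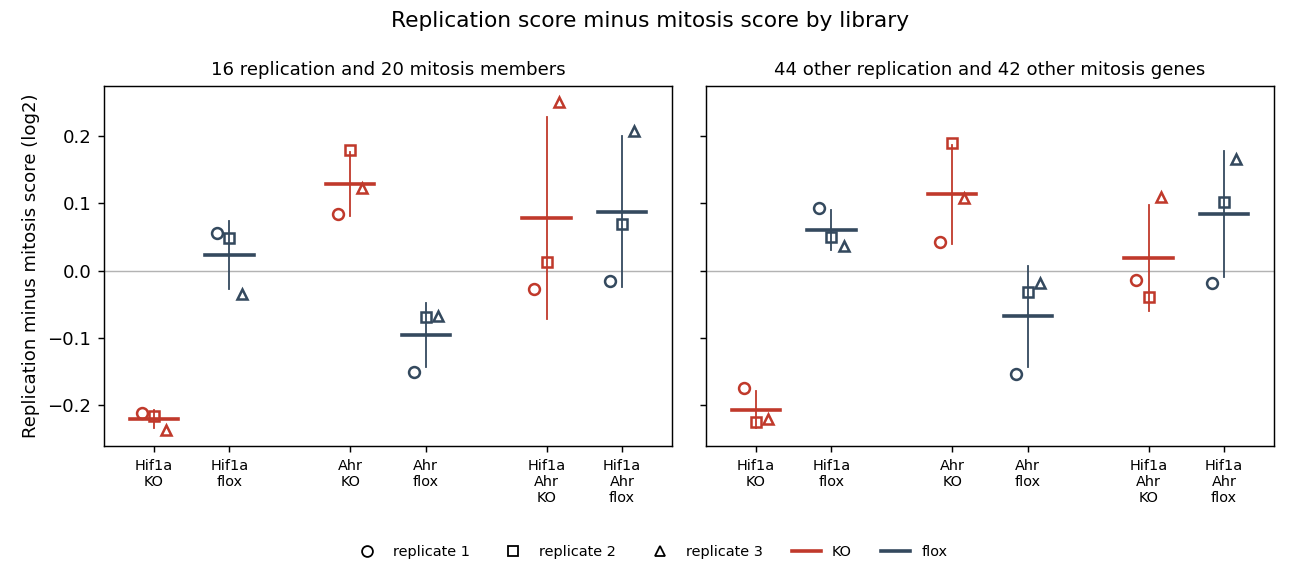
Replication score minus mitosis score (vertical axis, log2) by library for the members (left) and for other genes of both programs (right); lines mark group means and vertical bars 1 SD (n = 3). Hif1a KO libraries lie below and Ahr KO libraries above the flox libraries of their lines in both panels, and the Hif1a Ahr groups overlap.

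The promoters of the 2 groups carry different letters. RefSeq promoter windows (build GRCm38.p6, 250 bases before to 50 after the start, 1 window per gene) were at hand for 44 of the 55 members and 27025 genes in all. The E2F site, searched on both strands as TTCCCGC, or with the letters TTGGCGC, or as the run TTCGCGC, was in 64.3% of 14 replication promoters and 12.5% of 16 mitosis promoters, against 8.21% of all promoters. The cell cycle homology region (CHR), through which the DREAM complex acts on mitosis genes, was searched as TTTGAA or TTCGAA and was in 21.4% of replication and 75% of mitosis promoters, against 19.4% of all. The CCAAT box was in 78.6% of replication and 81.2% of mitosis promoters, against 37.9% of all. The HIF core (ACGTG or GCGTG) was in 42.9% of replication and 81.2% of mitosis promoters, against 43.8% of all, and the AhR core GCGTG, which is one of the HIF letters, in 35.7% and 68.8%, against 32.5%. A match is a run of letters and not a bound site. The last 120 bases before the start are printed here for 6 promoters, picked because they hold a CHR or E2F match in that stretch. They are the 3 mitosis promoters with a CHR match there whose genes had the smallest p in the difference between the Hif1a and Ahr effects, and the 3 replication promoters that hold an E2F match in this stretch. Of these 3 replication genes, Rrm1 and Uhrf1 were called in that difference and Mcm6 was not (0.16 ± 0.10, edgeR adjusted p = 0.28). The whole window held a CHR in 12 of 16 mitosis promoters and an E2F site in 9 of 14 replication promoters. The CHR matches of Kif23, Ccnb2, Bub1b, Bub1, Plk1, Aurka and Cenpf are not within the printed stretch. The p of each of these genes was smaller than that of Ube2c and Cdk1. The 6 promoters therefore do not stand for the layout of their groups. Capitals mark E2F, CHR and CCAAT matches on either strand.
Kif11 (chr19:37376262-37376381, plus strand): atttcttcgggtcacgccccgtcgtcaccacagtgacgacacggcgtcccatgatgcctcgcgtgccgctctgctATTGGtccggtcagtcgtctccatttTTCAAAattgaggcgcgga
Ube2c (chr2:164769809-164769928, plus strand): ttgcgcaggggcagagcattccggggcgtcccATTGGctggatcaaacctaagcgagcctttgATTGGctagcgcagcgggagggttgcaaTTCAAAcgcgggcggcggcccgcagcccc
Cdk1 (chr10:69352913-69353032, minus strand): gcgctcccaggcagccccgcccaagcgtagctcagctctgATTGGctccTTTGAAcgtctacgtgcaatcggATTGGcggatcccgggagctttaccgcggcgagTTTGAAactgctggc
Rrm1 (chr7:102441575-102441694, plus strand): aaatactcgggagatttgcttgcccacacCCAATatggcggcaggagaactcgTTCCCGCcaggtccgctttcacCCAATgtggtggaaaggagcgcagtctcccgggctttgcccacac
Uhrf1 (chr17:56303217-56303336, plus strand): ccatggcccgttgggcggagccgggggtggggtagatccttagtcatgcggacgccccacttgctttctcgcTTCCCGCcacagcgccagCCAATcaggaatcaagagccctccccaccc
Mcm6 (chr1:128359706-128359825, minus strand): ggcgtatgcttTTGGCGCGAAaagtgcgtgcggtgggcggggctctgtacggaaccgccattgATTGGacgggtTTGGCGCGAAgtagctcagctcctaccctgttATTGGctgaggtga
In Kif11 and Ube2c the capitals are CCAAT boxes followed by a CHR near the start. Cdk1 has a CHR after each of its 2 CCAAT boxes, and its whole window also holds 2 E2F matches, outside the printed bases. In Rrm1, Uhrf1 and Mcm6 the capitals are CCAAT boxes with E2F sites and no CHR.

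The genes of the G1 to S step did not move as 1 block. In Hif1a KO 3 of 7 rose (Cdk2, Ccne1 and Ccne2), 1 fell (Cdk6) and the D cyclins with Cdk4 were not called. The Ccne2 call was lost in 5 of the 6 fits that left out 1 Hif1a library (edgeR adjusted p up to 0.134). Cdk2, the S phase kinase, was at 82.6, 92.5 and 86.4 CPM in Hif1a KO, against 54.3, 66.5 and 52.5 CPM in Hif1a flox. In Ahr KO it was at 44.8, 41.5 and 45.7 CPM, against 81.5, 56.9 and 72.1 CPM in Ahr flox. It rose by 0.59 ± 0.14 in Hif1a KO (edgeR adjusted p = 0.00314) and fell in Ahr KO (-0.67 ± 0.14, adjusted p = 0.00793; 0.0529 without Ahr flox replicate 1), the single call of this group there. Cyclin E1 (Ccne1), its partner, was at 56.6, 60.2 and 59.5 CPM in Hif1a KO, against 41.4, 49.2 and 35.6 CPM in Hif1a flox, a rise of 0.48 ± 0.12 (adjusted p = 0.00361). Cdk6, the cyclin D kinase that begins the release of E2F, ran the other way. It was at 203, 175 and 193 CPM in Hif1a KO, against 235, 230.5 and 237 CPM in Hif1a flox, and at 228, 250.1 and 225 CPM in Ahr KO, against 193, 224 and 215 CPM in Ahr flox. Its level in Hif1a Ahr KO was 247, 277 and 278 CPM, against 217, 236 and 207 CPM in Hif1a Ahr flox. All 3 lines were separated by group. Cdk6 fell in Hif1a KO (-0.30 ± 0.07, edgeR adjusted p = 0.00443), rose by 0.28 ± 0.07 in Hif1a Ahr KO (adjusted p = 0.00735) and was at 0.16 ± 0.07 in Ahr KO (adjusted p = 0.248). Its call in Hif1a Ahr KO was lost in a fit of that line alone.

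In Hif1a Ahr KO 2 further genes of this step were called, both by small amounts. Cyclin D3 (Ccnd3) was at 177, 197 and 213 CPM in Hif1a Ahr KO, against 242, 204 and 238.5 CPM in Hif1a Ahr flox, and Cdk4 at 241, 233 and 237 CPM, against 253, 253 and 291 CPM in the same groups. Ccnd3 fell (-0.22 ± 0.08, edgeR adjusted p = 0.037) with overlapping libraries, and Cdk4 fell (-0.16 ± 0.06, adjusted p = 0.0499) without overlap. Both calls were lost in 4 of the 6 fits that left out 1 library of this line, with adjusted p up to 0.152 for Ccnd3 and 0.246 for Cdk4, and in a fit of this line alone (adjusted p = 0.163 and 0.231). Cyclin D2 (Ccnd2) was not called in any line (0.10, -0.02 and 0.07).

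The brakes on the G1 to S step were called in different comparisons. Rb1, the pocket protein that holds E2F factors, was at 83.5, 88.9 and 89.3 CPM in Hif1a KO, against 61.5, 63.5 and 66.1 CPM in Hif1a flox, and rose by 0.45 ± 0.08 (edgeR adjusted p = 0.000158). The inhibitor of Cdk4 and Cdk6, Cdkn2c, was at 80.1, 98.05 and 88.2 CPM in Hif1a KO, against 52.7, 61.5 and 58.8 CPM in Hif1a flox. The Ahr KO libraries had 51.6, 45.0 and 48.5 CPM, against 71.4, 63.0 and 65.5 CPM in Ahr flox. It rose by 0.62 ± 0.11 in Hif1a KO (adjusted p = 0.000269) and fell in Ahr KO (-0.46 ± 0.11, adjusted p = 0.0164; up to 0.0937 when replicate 1 of Ahr flox or replicate 2 or 3 of Ahr KO was omitted). Cdkn1b, known as p27, was at 46.7, 47.4 and 52.3 CPM in Hif1a Ahr KO, against 67.1, 74.2 and 67.1 CPM in Hif1a Ahr flox, all 3 lower. It fell there (-0.51 ± 0.09, edgeR adjusted p = 0.000425) and was at -0.16 in Hif1a KO and -0.15 in Ahr KO, neither called. Cdkn1a, known as p21 and induced by p53, was not called in any line (-0.32, -0.23 and -0.14), and in Hif1a KO only with the replicate block (adjusted p = 0.0171).

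Of the 4 E2F factors, 3 (E2f2, E2f7 and E2f8) rose in Hif1a KO, and E2f1 was at -0.04 ± 0.09. The E2f7 call was lost in 3 of the 6 fits that left out 1 Hif1a library (edgeR adjusted p up to 0.0813). E2f2, an activator, was at 47.0, 55.5 and 51.5 CPM in Hif1a KO, against 25.7, 31.4 and 26.7 CPM in Hif1a flox. In Hif1a Ahr KO it was at 42.4, 43.2 and 46.5 CPM, against 38.8, 27.6 and 32.6 CPM in Hif1a Ahr flox. It rose by 0.88 ± 0.13 in Hif1a KO (edgeR adjusted p = 5.89e-05) and by 0.42 ± 0.13 in Hif1a Ahr KO (adjusted p = 0.0207; up to 0.0974 omitting replicate 2 or 3 of Hif1a Ahr flox or replicate 3 of Hif1a Ahr KO). E2f8, a repressor that acts late in S phase, was at 68.6, 86.1 and 84.3 CPM in Hif1a KO, against 48.0, 56.5 and 49.6 CPM in Hif1a flox. Its level in Ahr KO was 46.5, 40.3 and 48.4 CPM, against 65.1, 58.4 and 63.4 CPM in Ahr flox. It rose by 0.63 ± 0.11 in Hif1a KO (edgeR adjusted p = 0.000209) and fell in Ahr KO (-0.47 ± 0.11, adjusted p = 0.0148; up to 0.0921 omitting replicate 1 or 3 of Ahr flox or replicate 2 of Ahr KO), the single E2F call there. With the replicate block all 4 E2F factors were lower in Ahr KO. E2f1, the activator bound by Rb1, was at 56.002, 56.1 and 58.7 CPM in Hif1a Ahr KO, against 73.0, 57.9 and 74.2 CPM in Hif1a Ahr flox, and fell there (-0.26 ± 0.09, edgeR adjusted p = 0.0365), a call lost in 5 of the 6 fits that left out 1 library of this line (adjusted p up to 0.142).

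All 4 markers of S phase to mitosis rose in Hif1a KO. Top2a, which untangles DNA before chromosomes part, was at 912, 1010.0 and 978 CPM in Hif1a KO, against 561, 642 and 548 CPM in Hif1a flox. The Ahr KO libraries had 505, 431 and 518 CPM, against 686, 632 and 662 CPM in Ahr flox. It rose by 0.73 ± 0.11 in Hif1a KO (edgeR adjusted p = 3.83e-05) and fell in Ahr KO (-0.45 ± 0.11, adjusted p = 0.0152; up to 0.099 omitting replicate 1 or 3 of Ahr flox or replicate 2 of Ahr KO). Cyclin A2 (Ccna2), which serves both S phase and entry into mitosis, was at 325, 345.5 and 343 CPM in Hif1a KO, against 209, 239.9 and 210.3 CPM in Hif1a flox. In Ahr KO it was at 199, 173 and 209.7 CPM, against 271, 238 and 273 CPM in Ahr flox. The changes were 0.62 ± 0.09 (edgeR adjusted p = 4.06e-05) and -0.43 ± 0.09 (adjusted p = 0.00767; 0.0575 without Ahr KO replicate 2). Pif1, a helicase that works at stalled forks and telomeres, was at 16.3, 19.1 and 15.7 CPM in Hif1a Ahr KO, against 13.4, 11.2 and 11.9 CPM in Hif1a Ahr flox, and was 1 of 3 members that rose there (0.48 ± 0.14, adjusted p = 0.014; up to 0.077 without Hif1a Ahr flox replicate 2 or Hif1a Ahr KO replicate 2). Mki67, the usual stain for cycling cells, rose by 0.40 ± 0.15 in Hif1a KO (adjusted p = 0.0456), a call lost in 4 of the 6 fits without 1 library (adjusted p up to 0.173).

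The opposite directions were tested as a difference of effects. The Hif1a effect minus the Ahr effect was called for 46 of 55 members, 45 of them positive, where 32.3% of all genes were called (16.6% positive and 15.7% negative). All 20 mitosis genes (median difference 0.98) and 13 of 16 replication genes (median 0.45) were among them. Kif23 had the smallest p, with a difference of 1.51 ± 0.14 (edgeR adjusted p = 6.52e-07), followed by Kif20a at 0.90 ± 0.10 (adjusted p = 2.52e-06). Cdk6 was the member with a negative difference (-0.45 ± 0.11, adjusted p = 0.00292). The 20 mitosis calls remained 20 in every alternative tried, leaving out each of the 12 libraries included. Without scaling beyond library totals, the median of all genes in this difference shifted to 0.13, and 3918 genes were called positive against 1904 negative, beside 2781 and 2634 with TMM; the mitosis count was unchanged by it. In Hif1a KO itself the split was then 4117 higher against 2155 lower, beside 2948 and 2975 with TMM.

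In the double line few members were called. Of the 26 members that rose in Hif1a KO and fell in Ahr KO, 0 were called in Hif1a Ahr KO by edgeR, and the double effect lay between the 2 single effects for 46 of 55 members and for all 20 mitosis genes. These joint counts were taken over the members alone, so no share over all genes stands beside them. An effect near 0 lies between 2 clear effects of opposite sign whatever the gene. The 0 mitosis calls stand beside 2 at an unadjusted p under 0.05 and 0 by DESeq2 and by limma voom. Against the Hif1a effect, the Hif1a Ahr effect was lower for 23 members and higher for 1 (Cdk6), where 9.63% of all genes were called (5.11% lower and 4.52% higher). Among them were Kif23 at -0.91 ± 0.14 (edgeR adjusted p = 0.00146) and Ccnb2 at -0.68 ± 0.12 (adjusted p = 0.0033). Against the Ahr effect it was higher for 17 members and lower for 0, where 16.4% of all genes were called (8.59% higher and 7.82% lower). Among them were Ccnb1 at 0.64 ± 0.12 (adjusted p = 0.00138) and Plk1 at 0.61 ± 0.13 (adjusted p = 0.00234). These 2 differences share the Hif1a Ahr libraries. The mitosis genes made up 15 of the 23 and 8 of the 17, and the replication genes 4 and 3. No member departed from the sum of the 2 single effects by edgeR (0 of 55, where 0.0358% of all genes were called, 3 members at an unadjusted p under 0.05, and 0 by DESeq2 and limma voom), which does not show that the effects add. Counts in these comparisons rest on single libraries: in Hif1a Ahr KO against flox, mitosis genes called higher went to 3 without Hif1a Ahr flox replicate 1 and 1 without Hif1a Ahr KO replicate 3, and those called lower to 3 without Hif1a Ahr KO replicate 1 and 1 without Hif1a Ahr flox replicate 2. The 23 members lower than in the Hif1a effect became 15 without Hif1a Ahr flox replicate 1 or Hif1a KO replicate 2 and 36 without Hif1a Ahr flox replicate 2. The 17 higher than in the Ahr effect became 9 without Ahr flox replicate 1, 10 without Hif1a Ahr flox replicate 2 or Ahr KO replicate 2 and 11 without Hif1a Ahr KO replicate 2.

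None of the 55 members was called between the flox cells of the 3 lines in edgeR's F test (0 called, 5 at an unadjusted p under 0.05, 0 by DESeq2 and by limma voom), where 0.245% of all genes were, Ahr itself among them (adjusted p = 0.0326). The mean mitosis score was -0.11 ± 0.09 in Hif1a flox, 0.09 ± 0.11 in Ahr flox and -0.01 ± 0.16 in Hif1a Ahr flox (SD, n = 3). Line and any day of preparation cannot be told apart.

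Other genes of the same pathways were listed by function with earlier results of these data known. Their counts, and those of the lists after them, stand beside 35.4% of all genes called in Hif1a KO, 6.92% in Ahr KO and 31.3% in Hif1a Ahr KO. Of 42 other mitosis genes 39 rose in Hif1a KO, 32 fell in Ahr KO and 3 rose and 1 fell in Hif1a Ahr KO. Mad2l1, a spindle checkpoint protein, rose by 0.75 ± 0.09 in Hif1a KO (edgeR adjusted p = 4e-06), and Nuf2, a kinetochore partner of Ndc80, by 0.76 ± 0.10 (adjusted p = 1.13e-05). In Ahr KO Cdca8, a partner of Aurkb, fell (-0.44 ± 0.08, adjusted p = 0.00293). Of 44 other replication genes 28 rose and 1 fell in Hif1a KO, 7 fell in Ahr KO (26 with the replicate block), and 2 rose and 7 fell in Hif1a Ahr KO. Dbf4, which activates the kinase that fires origins, rose by 0.63 ± 0.09 in Hif1a KO (edgeR adjusted p = 2.1e-05), and Rpa3, of the complex that coats single strands, rose there by 0.59 ± 0.08 (adjusted p = 2.48e-05) and fell in Ahr KO (-0.43 ± 0.08, adjusted p = 0.00376). Orc2, of the complex that marks origins, rose by 0.62 ± 0.09 in Hif1a Ahr KO (adjusted p = 2.65e-05). Of 12 DREAM and E2F partners 8 rose and 1 fell in Hif1a KO, 1 rose and 1 fell in Ahr KO and 5 rose and 1 fell in Hif1a Ahr KO, with medians of 0.42, -0.07 and 0.15. Rbl2, a pocket protein of quiescent cells, rose by 0.48 ± 0.06 in Hif1a KO and by 0.29 ± 0.05 in Hif1a Ahr KO (edgeR adjusted p = 2.74e-06 and 0.000598). In Ahr KO the gene that rose was E2f4, a repressor E2F (0.20 ± 0.06, adjusted p = 0.0474), and the gene that fell was Rbl1, another pocket protein. Of 10 other G1 regulators 4 rose in Hif1a KO and 5 fell in Ahr KO, with Cdkn3 at 0.51 ± 0.08 and -0.33 ± 0.08 (adjusted p = 0.000109 and 0.0206).

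Most p53 targets rose in both KO groups that carry the Hif1a fl/fl alleles. Of 9 tested, 7 rose in Hif1a KO, 5 rose in Hif1a Ahr KO and 2 fell in Ahr KO. Zmat3, an RNA-binding target of p53, was at 52.7, 43.9 and 52.0 CPM in Hif1a KO, against 18.7, 21.4 and 20.2 CPM in Hif1a flox. Its level in Hif1a Ahr KO was 49.9, 68.6 and 63.5 CPM, against 20.8, 18.2 and 26.0 CPM in Hif1a Ahr flox. It rose by 1.30 ± 0.13 and 1.49 ± 0.13 (edgeR adjusted p = 7.87e-07 and 1.73e-07) and was at -0.11 ± 0.13 in Ahr KO (adjusted p = 0.71). Ccng1, cyclin G1, rose by 0.59 ± 0.10 and 0.58 ± 0.10 in the same 2 comparisons (adjusted p = 0.000239 and 0.000342), while Cdkn1a, given above, did not. Of 13 genes of the DNA damage checkpoint and repair 7 rose and 1 fell in Hif1a KO, 4 fell in Ahr KO and 2 rose and 1 fell in Hif1a Ahr KO, with H2ax, the histone marked at breaks, at 0.71 ± 0.09 in Hif1a KO and 0.72 ± 0.09 in Hif1a Ahr KO (adjusted p = 1.56e-05 and 1.47e-05). Of 7 genes of quiescence 2 rose and 1 fell in Hif1a KO, and 2 fell in each of Ahr KO and Hif1a Ahr KO, shares near those of all genes in Hif1a KO and Hif1a Ahr KO. Ccng2, a cyclin of arrested cells, fell in Hif1a KO (-0.41 ± 0.13, adjusted p = 0.0159) and in Hif1a Ahr KO (-0.91 ± 0.13, adjusted p = 3.76e-05).

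Pclaf, the clamp-associated factor bound by Pcna, had the largest change of the replication genes in Hif1a KO and lies on chromosome 9. It was at 584, 595 and 619.9 CPM in Hif1a KO, against 315, 366 and 269.9 CPM in Hif1a flox, at 329, 296 and 349 CPM in Ahr KO, against 378, 361 and 384 CPM in Ahr flox. The Hif1a Ahr KO libraries had 445, 438 and 449.6 CPM, against 426, 317 and 370.4 CPM in Hif1a Ahr flox. The groups did not overlap in any line, and the changes were 0.92 ± 0.10 (edgeR adjusted p = 2.44e-06), -0.21 ± 0.10 (adjusted p = 0.272) and 0.26 ± 0.10 (adjusted p = 0.0639). Its tested neighbours on either side, Trip4 and Csnk1g1, rose in all 3 KO groups, by 0.65, 0.62 and 0.57 and by 0.55, 0.45 and 0.62. From the next gene, Ppib, the run changes sign, with Ppib at -1.11, -0.94 and -1.07 and Snx1 at -1.16, -0.99 and -1.31, each called in all 3 comparisons. Pif1 lies 5 tested genes to the other side of Pclaf, and Bnip2, 4 tested genes from Ccnb2, was at -0.92, -0.97 and -1.04. These neighbours were named after their values were seen, gene order is that of an annotation of the previous mouse build, and their part in the results for Pclaf, Pif1 and Ccnb2 was not tested.

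**Figure D5:**
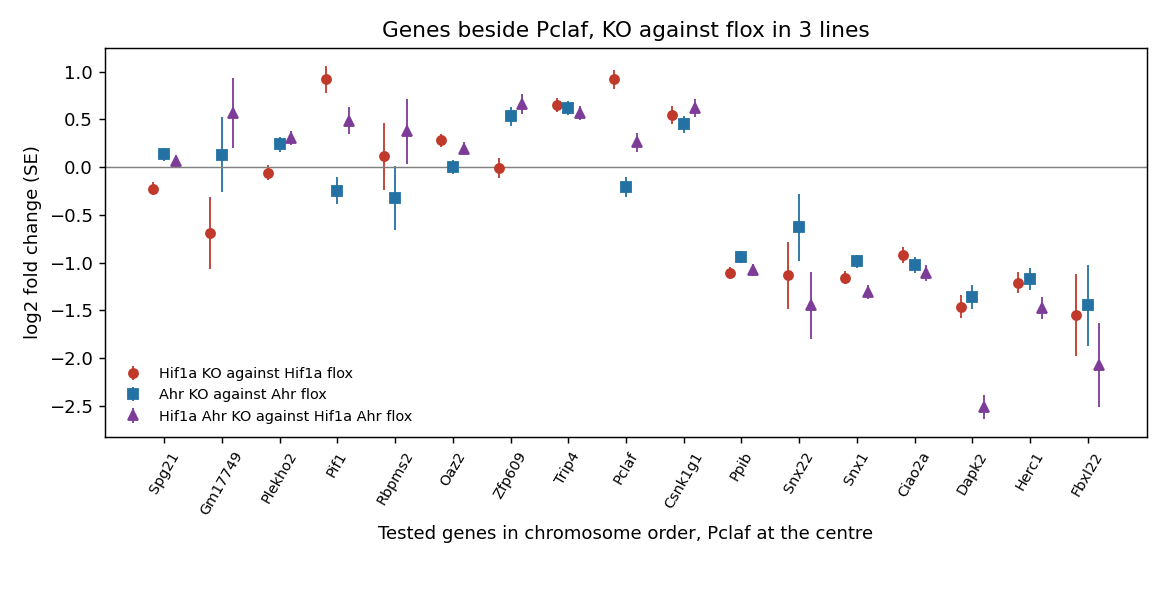
Log2 fold change with its standard error (vertical axis) of Pclaf and the 8 tested genes on each side, in chromosome order, in Hif1a KO against Hif1a flox, Ahr KO against Ahr flox and Hif1a Ahr KO against Hif1a Ahr flox (n = 3 libraries per group). Trip4 and Csnk1g1 beside Pclaf lie above 0 in all 3 comparisons, and the 7 genes from Ppib on lie below 0 in all 3.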

How the data were processed

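RNA of 18 NK cell libraries was sequenced as strand-specific mRNA libraries on DNBSEQ, per the labels. The authors deposited expected counts per Ensembl gene, estimated with kallisto 0.4.6 after Trim Galore 0.6.4, with build GRCm39 and edgeR 3.17 also named, per the submitters' processing notes. They also deposited log2 CPM values, which were used only as a check. Between 65% and 67.3% of the values above 0 were not whole (tolerance 1e-06). Reads shared by similar genes are divided by such estimates, so near-identical copies remain uncertain.

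Counts were scaled by TMM and filtered with filterByExpr, leaving 16747 of 56953 genes. edgeR 4.0.16 (R 4.3.3) fitted 6 group means to all 18 libraries with robust quasi-likelihood (12 residual degrees of freedom), and a Benjamini-Hochberg adjusted p under 0.05 was a call. The script was tested on simulated data. Standard errors are the log2 fold change over the root of F, and scores use log2 CPM with a prior count of 2. The labels call the replicates biological but name no animals, so p-values measure the spread between these libraries.

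Per-library values are given, for each role and comparison, for the 2 called members of smallest adjusted p, the 2 of smallest p in each difference of effects and members moving against their role, and for other lists up to 3 called genes are eligible. The members and lists were chosen with earlier results of these data known. Same-numbered libraries deviated together in the Hif1a line (correlations 0.2961 to 0.53) and the Ahr line (0.3334 to 0.5341), and not by the same rule in the Hif1a Ahr line (0.0671 to 0.4481). Alternatives were another scaling, other filters, DESeq2 1.42.0 on rounded counts, limma 3.58.1 voom, fits of the compared lines alone, the replicate block and leaving out each library. Of the listed genes, 1 was not matched.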

Additional observations from a re-analysis of the deposited data

Results flagged for a closer look

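Effects that differed between lines by a test of the difference itself are collected here, with edgeR's adjusted p under 0.05 as the threshold. The Hif1a effect minus the Ahr effect was called for 46 of 55 members, 13 of 16 replication genes and all 20 mitosis genes, with Kif23 at 1.51 and Kif20a at 0.90 (log2). The Hif1a Ahr effect minus the Hif1a effect was called for 24 members, 4 replication genes and 15 mitosis genes, with Kif23 at -0.91 and Ccnb2 at -0.68. The Hif1a Ahr effect minus the Ahr effect was called for 17 members, 3 replication genes and 8 mitosis genes, with Ccnb1 at 0.64 and Plk1 at 0.61. These differences share libraries with one another.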

How the results depend on the processing

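No called value changed sign, and the cause of each shift below was not tested. With library totals the split of all genes called in Hif1a Ahr KO was 2836 higher and 2236 lower, beside 2482 and 2763 with TMM. The replication minus mitosis difference of that line, -0.009, had the other sign without Hif1a Ahr flox replicate 3 or Hif1a Ahr KO replicate 1 or 2, for medians over members (0.0015) and without Ccnb1, Ccnb2, Cdk1 and Foxm1 (0.0105), each a move of under 1 SD between replicates. In Ahr KO against Ahr flox, replication genes called lower numbered 5 without a filter, 6 by DESeq2, 5 in a fit of the compared line alone and 9 with the replicate block, and genes called higher numbered 585 by DESeq2, 703 in the line alone and 1034 with the block (1389 lower). In Hif1a Ahr KO against Hif1a Ahr flox, replication genes called lower numbered 2 with a stricter filter, 2 by DESeq2 (1 higher), 0 in the line alone and 3 with the block (1 higher), mitosis genes 3 higher and 4 lower with the block, the 55 members 7 higher and 11 lower with the block, and all genes 1544 higher and 1556 lower in the line alone. That line's numbers do not pair the libraries by the rule used. For the Hif1a Ahr effect minus the Hif1a effect, replication genes called lower numbered 2 with library totals, 2 in the lines alone and 12 with the block, and all genes 414 higher and 564 lower in the lines alone and 1606 and 1553 with the block. For the Hif1a Ahr effect minus the Ahr effect the block gave 5 replication and 17 mitosis genes higher. Departures from the sum of single effects gave 1 gene lower with library totals, 1 without a filter, 20 higher and 4 lower by DESeq2, and 30 and 5 with the block. DESeq2 called 112 genes between flox groups. No fit of fewer lines was made for these last 2 comparisons.

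Leaving out each library gave, in Ahr KO, 110 to 439 genes higher, 357 to 894 lower, 0 to 5 replication and 10 to 19 mitosis genes lower. It gave 5 to 9 replication genes higher in Hif1a KO. In Hif1a Ahr KO it gave 0 to 1 replication genes higher and 1 to 3 lower, 0 to 3 mitosis genes higher and 0 to 3 lower, and a replication minus mitosis difference of -0.0952 to 0.0512. The Hif1a Ahr effect minus the Hif1a effect gave 341 to 1148 genes higher, 413 to 1286 lower and 1 to 9 replication genes lower. Against the Ahr effect there were 1 to 4 replication and 5 to 12 mitosis genes higher. Departures from the sum gave 0 to 8 genes lower, and flox groups differed in 27 to 45 genes.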
